A study of Ovis aries with 16 samples.

Results

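The comparison described here sets the amnion of fetal sheep that received lactated Ringer's solution in the amniotic sac (IA) against the amnion of control fetuses (C). It covers 8 of the 16 RNA-seq libraries of the study, 4 in IA and 4 in C, chosen by their treatment label. The animals were time-dated pregnant sheep, each with 1 fetus, instrumented at a gestational age of 121 ± 0.5 days (SE), where term is 145 to 150 days. IA fetuses received the salt solution continuously at 2 liters per day over a protocol of 2 days. C fetuses had the same protocol length with no labelled change of fluid. Every animal, controls included, carried catheters in maternal and fetal vessels, in the amniotic fluid and in the fetal bladder. The tissue was taken immediately after the protocol, so later changes are outside the data. The other 8 libraries came from fetuses whose urine was drained, without replacement (UD, 4 libraries) or with replacement of the volume by lactated Ringer's solution (UDR, 4 libraries). They enter here only where named.

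The amnion is the thin inner fetal membrane, made of an epithelium that faces the amniotic fluid and a layer of connective tissue without blood vessels of its own. Amniotic fluid is fed mainly by fetal urine and lung liquid. It is removed by fetal swallowing and by intramembranous transport, the passage of water and solutes across the amnion into the fetal vessels that run on its outer side. Much of this transport is thought to run through vesicles, which bud from one face of the epithelial cell, for example from caveolae or clathrin-coated pits, and fuse with the other. Infusion into the sac raises the volume of fluid and is known to raise the rate of intramembranous transport. The comparison asks which amnion transcripts differ after such an infusion.

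The table gives read counts for 25197 Ensembl sheep gene IDs and no gene names, and 0 of these IDs matched the reference gene table. Genes are therefore described as groups made from the counts, and 4 are given by ID. For the same reason the labelled tissue could not be checked against epithelial or stromal markers. The IA libraries held 15814677 to 17160464 counts and the C libraries 12307412 to 16956583. Genes were tested where they reached a CPM (counts scaled to library size) of 1 in at least 4 of the 16 libraries. That filter kept 13569 genes with 99.8% of the counts. IA was sequenced in lane 3 and C in lane 1 of the sequencer. No library was run in both lanes, so a lane effect and an infusion effect cannot be told apart from these 8 libraries alone.

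No single gene passed the test between IA and C. edgeR's quasi-likelihood test, fitted over all 16 libraries, called 0 of 13569 genes (0%), and no adjusted p was below 0.9996. At an unadjusted p under 0.05 there were 580 genes, 4.27% of those tested, of which 501 (3.69%) were higher and 79 (0.582%) lower in IA. Of these, 43 had an unadjusted p under 0.01 and 1 under 0.001. With no difference in any gene, about 678 genes would be expected under 0.05, so 580 is no surplus in this fit. Limma-voom with quality weights per library also called 0 genes, with 1111 at an unadjusted p under 0.05, and DESeq2 called 5, with 940. Both of these counts lie above 678, so a surplus at this level depended on the tool. A fit that also held the sequencing lane gave 0 calls by edgeR. At an unadjusted p under 0.05 it had 373 genes, of which 239 were higher in IA. That term links lanes 1 and 3 only through different animals of UD and UDR. A fitted change over 2-fold was found for 1667 genes, 12.3% of those tested, with 1299 (9.57%) higher and 368 (2.71%) lower in IA. The median log2 fold change of all genes was -0.02, a value that the scaling of the libraries holds near 0.

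The infused amnions were not alike. Relative to the median of the controls, IA 2 held 1497 genes over 4-fold higher and 1138.5 over 4-fold lower, as means over the sets of 3 controls. IA 4 held 370 and 83 such genes, IA 3 98 and 165, and IA 1 61 and 176. Each control was set against the other 3 controls in the same way. C 1 held 531 genes above and 232 below, and the other controls held 71 to 89 above and 78 to 257 below. IA 1, IA 3 and IA 4 thus held fewer such genes than C 1 did, in either direction, while IA 2 held more than any control in both.

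**Figure D1:**
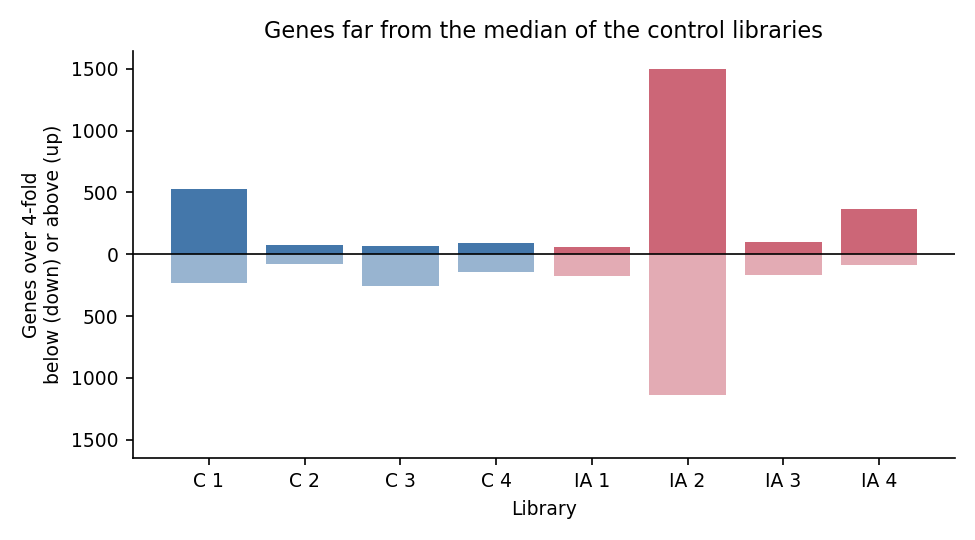
Number of tested genes over 4-fold above (bars up) or below (bars down, paler) the median of the control libraries, in each library of C (blue) and IA (red); a control is set against the other 3, and an IA library against each set of 3 controls, averaged. IA 2 holds 1497 genes above and 1138.5 below, more than any other of the 8 libraries.

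Pairs of libraries gave the same picture. The root mean square difference in log2 CPM over all tested genes had a median of 0.79 between an IA and a C library (12 pairs without IA 2, range 0.67 to 1.18). Within C it had a median of 0.86 (6 pairs, range 0.70 to 1.23), and between IA 1, IA 3 and IA 4 a median of 0.86 (3 pairs, range 0.72 to 0.89). By these medians the 3 infused amnions were as close to control amnions as control amnions were to each other. C 1 weighs more in the pairs within C, where its own pairs differed by 0.96 to 1.23. Pairs among C 2 to C 4 differed by 0.70 to 0.75. From those controls IA 1 differed by 0.69 to 0.75, IA 3 by 0.72 to 0.82 and IA 4 by 0.67 to 0.95. Pairs of IA 2 with a control differed by a median of 1.94 (range 1.77 to 2.07), and pairs of IA 2 with another IA library also by 1.94 (range 1.69 to 2.04). In 60.8% of genes IA 2 was the IA library farthest from the median of its group, and in 48.3% C 1 was the farthest of C. The median SD of log2 CPM was 0.47 in IA, 0.28 without IA 2 and 0.41 in C.

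The genes that put IA 2 apart were of 2 kinds, by their behaviour in the other infused animals. In IA 2, 834 genes lay over 4-fold above the highest control library. They took 30.4% of the counts of IA 2, against 1.41% to 5.03% in the controls, with a median of 30.3 CPM in IA 2 and 1.90 in C. Of these 834 genes, 625 (74.9%) also lay above every control in IA 4, where 15.6% of all genes did. In IA 3 it was 156 (18.7%, against 19.1% of all genes), and in IA 1 it was 55 (6.59%, against 16.3%). Since these genes were chosen by IA 2 and the controls, the shares are a description. IA 4 thus shared most of the genes that were high in IA 2, at a smaller size, and IA 1 and IA 3 did not.

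The genes low in IA 2 were not shared. There, 771 genes lay over 4-fold below the lowest control library. They took 0.567% of the counts of IA 2, against 12.2% to 18.3% in the controls, and their median was 0.928 CPM in IA 2 and 34.0 in C. Below every control were 126 of them in IA 4 (16.3%, against 13.2% of all genes), 144 in IA 3 (18.7%, against 18.97%) and 77 in IA 1 (9.99%, against 13.4%). In these bulk libraries fewer cells of a type and less RNA per cell cannot be told apart, and with no gene names the share of other cell types in IA 2 was not tested.

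The surplus of genes higher in IA depended on the measure and on which libraries were in the fit. With IA 2 alone left out, it was absent past 2-fold and at an unadjusted p under 0.05. Of the genes over 4-fold outside the controls in IA 2, the fit put 832 of the 834 high ones past 2-fold. Of the 771 low ones it put 81 past 2-fold. Limma-voom, which works on log2 values and gave IA 2 the lowest weight, had 311 genes over 2-fold higher and 295 lower. Without IA 2, 136 genes had an unadjusted p under 0.05, 1.0% of those tested, with 64 higher and 72 lower. edgeR again called 0 genes, and no adjusted p was below 0.9998. Past 2-fold were 923 genes (6.8%), 382 higher and 541 lower. Without both IA 2 and C 1, the library farthest from its group in C, 950 genes were past 2-fold, 681 higher and 269 lower, so the direction of the surplus past 2-fold changed with C 1. Of the 580 genes found with all 8 libraries 80 were among these 136, which is 13.8% of the first list and 58.8% of the second. Of the 1299 genes over 2-fold higher with all libraries, 328 were over 2-fold higher without IA 2 and 201 had the opposite sign. Their median log2 fold change went from 1.80 to 0.59. IA 2 was the highest of the 8 libraries in 1177 of these 1299 genes (90.6%), where it was the highest in 27.6% of all genes.

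Genes over 2-fold lower in the fit depended less on this animal, which the measure itself favours. The fit compares mean counts, and 1 low library can move a mean less than 1 high library. Few changes of sign could thus be foreseen. Of 368 genes over 2-fold lower, 283 were also over 2-fold lower without IA 2 and 0 changed sign, with a median log2 fold change of -1.38 with IA 2 and -1.40 without it. IA 2 was the lowest library in 143 of them (38.9%, against 29.1% of all genes).

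**Figure D2:**
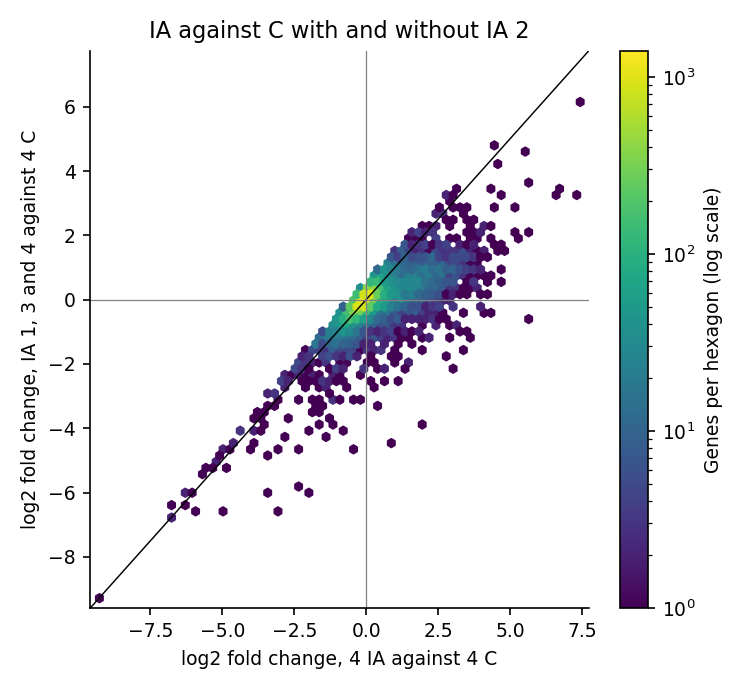
Log2 fold change of IA against C for each of 13569 genes, with all 4 IA libraries (horizontal) and without IA 2 (vertical); colour gives the number of genes per hexagon on a log scale, and the black line marks equal values. The 1299 genes over 2-fold higher mostly lie below the line, with a median of 1.80 with IA 2 and 0.59 without it.

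Other libraries moved the count as well. With 1 of the 8 libraries left out, the number of genes at an unadjusted p under 0.05 ranged from 136 without IA 2 to 912 without IA 1. It was 374 without C 2, 229 without C 3 and 313 without C 4, against 580 with all libraries. Of the 229 genes without C 3, 149 were higher and 80 lower in IA. The number lower in IA stayed between 59 and 125 in these 8 fits, while the number higher ranged from 64 to 831. edgeR called 0 genes in each of the 8 fits. Without both IA 2 and C 1, 121 genes had such a p, 74 higher and 47 lower.

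**Figure D3:**
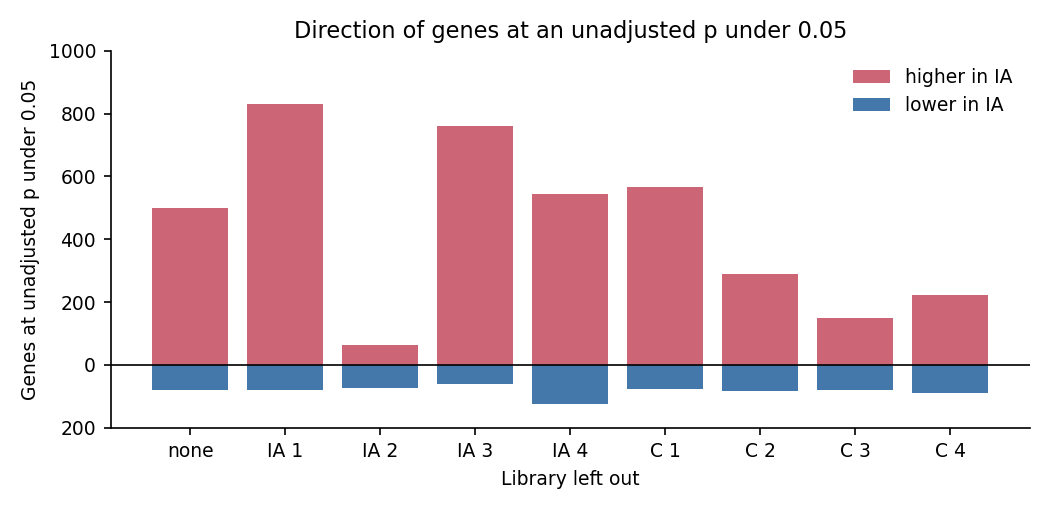
Number of genes at an unadjusted p under 0.05 between IA and C that were higher (red, up) or lower (blue, down) in IA, with all libraries (none) and with each of the 8 libraries left out of the fit. The number higher in IA falls from 501 to 64 without IA 2, and the number lower stays between 59 and 125.

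Few genes separated the 2 groups completely. In 145 genes (1.07%) every IA library lay above every control and in 109 (0.803%) below, together 254 or 1.87% of those tested. Random labels of 4 against 4 would separate a gene with a probability of 0.0286, so this share is not above that of random labels. Of the 254 genes, 59 had a fitted change over 2-fold higher and 26 over 2-fold lower. Without IA 2, with 7 libraries to separate, 579 genes or 4.27% did not overlap, 351 with IA above the controls and 228 below. Random labels of 3 against 4 separate a gene more often than those of 4 against 4. The probability of 0.0286 therefore does not apply to this share, which is not read as a surplus. In 675 genes 3 of the 4 IA libraries lay above every control, and in 557 below.

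**Figure D4:**
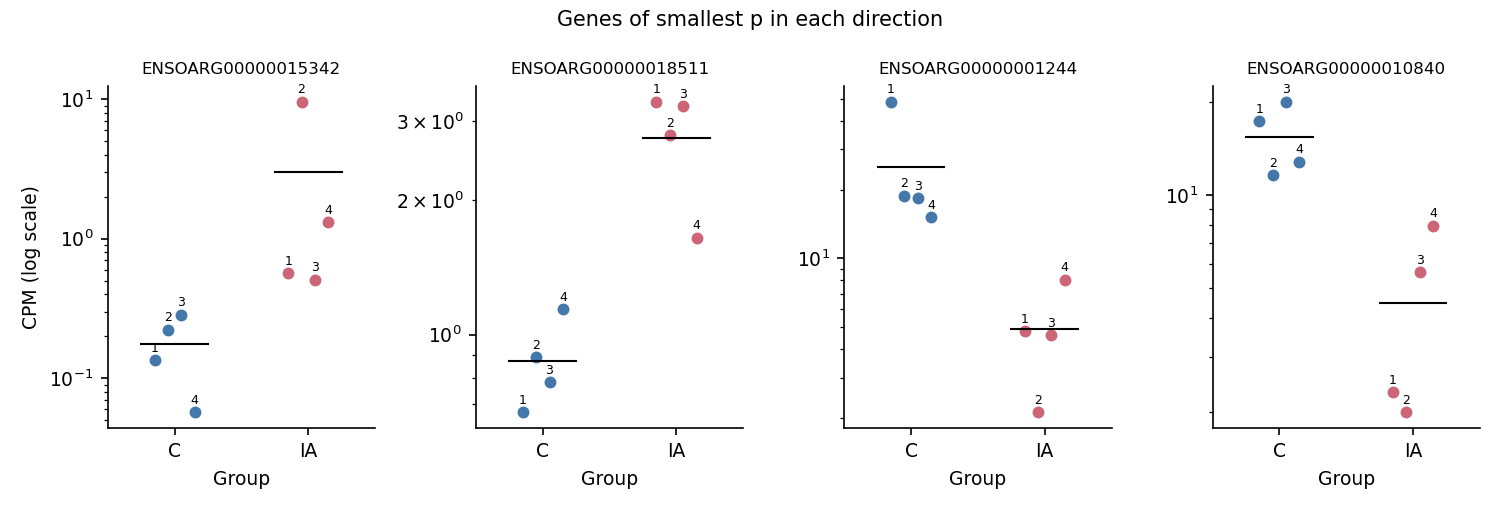
CPM (log scale) of the 2 higher and 2 lower genes of smallest p between IA and C, in each library of C (blue) and IA (red); numbers give the replicate and black lines the group means. In none of the 4 genes do the IA and C libraries overlap, and IA 2 stands apart in ENSOARG00000015342, at 9.61 CPM.

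By edgeR the adjusted p of the 4 genes given here by ID was 0.9996, so none passed. They were picked for a small p in this same comparison, which favours genes whose groups are apart and steady. Their separation and their values with libraries left out are therefore a description. The smallest unadjusted p belonged to ENSOARG00000001244, which was lower in IA. It was at 48.5, 18.8, 18.4 and 15.1 CPM in C 1 to C 4. In IA 1 to IA 4 it was at 4.82, 2.12, 4.63 and 8.07 CPM. All IA libraries lay below all controls, and C 1 lay apart at the top. The means were 4.91 ± 2.44 in IA and 25.2 ± 15.6 in C (SD, n = 4). The log2 fold change came to -2.36 (SE 0.51). Without C 1 it was -1.83, and without IA 2 it was -2.10. The drained groups had 8.71 ± 2.40 CPM (UD) and 8.87 ± 4.04 CPM (UDR; SD, n = 4), with no library above 12.3 CPM, so all 12 treated animals lay below the lowest control. These groups share the controls with IA, so this is 1 set of control values seen 3 times.

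ENSOARG00000010840 was also lower in IA. It was at 17.3, 11.6, 20.02 and 12.8 CPM in C 1 to C 4 and at 2.31, 1.99, 5.64 and 7.96 CPM in IA 1 to IA 4. IA 1 and IA 2 were the lowest of the 8, and the groups did not overlap. The log2 fold change was -1.78 (SE 0.53). Without IA 2 it was -1.53. UD libraries held it at 2.40 to 13.7 CPM and UDR libraries at 6.20 to 14.4 CPM, and both ranges overlapped that of the controls.

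Among genes higher in IA, the smallest p was that of ENSOARG00000015342. It was barely detected in the controls, with 2, 3, 4 and 1 counts, or 0.134, 0.223, 0.285 and 0.0569 CPM. In IA 1 to IA 4 it had 9, 145, 8 and 24 counts, or 0.563, 9.61, 0.507 and 1.32 CPM. All IA libraries were above all controls, and IA 2 stood far above the next. The log2 fold change was 4.07 (SE 1.08), and 2.18 (SE 0.82) without IA 2. In UD it lay at 0.142 to 3.45 CPM and in UDR at 0.137 to 0.221 CPM.

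The higher level of ENSOARG00000018511 in IA did not rest on 1 animal. It was at 0.671, 0.892, 0.784 and 1.14 CPM in C 1 to C 4 and at 3.31, 2.78, 3.23 and 1.65 CPM in IA 1 to IA 4. IA 4 was the lowest infused library and still above the highest control. The means were 2.74 ± 0.768 in IA and 0.871 ± 0.200 in C (SD, n = 4). The log2 fold change was 1.64 (SE 0.48). Without IA 2 it was 1.63. With any 1 of the 8 libraries left out it ranged from 1.54 to 1.83. It is a gene of low level, with 10 to 20 counts in the controls and 30 to 53 in IA. UD libraries held it at 1.13 to 2.88 CPM and UDR libraries at 0.441 to 1.84 CPM.

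The 5 genes called by DESeq2, chosen after their values were seen, show how the libraries that stood apart enter a call. ENSOARG00000001244 was one of them, with an adjusted p of 0.00981. Of the other 2 lower genes, one was at 18.0 CPM in C 1, at 0.223 CPM in C 2 and at 0 in the other 6 libraries. The other was at 3.09 CPM in C 1 and at 0 in the other 7. Both higher genes had their peak in IA 2. The first was at 290.1 CPM there and at 1.44, 22.4 and 3.35 CPM in IA 1, IA 3 and IA 4, against 1.28 to 4.16 CPM in the controls, so the groups overlapped. The second was at 187.2 CPM in IA 2 and at 2.88, 3.36 and 9.06 CPM in IA 1, IA 3 and IA 4, all above the highest control at 1.92 CPM.

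The share of counts held by the most abundant genes was higher in every infused library than in every control, but did not pass after adjustment. The 10 most abundant genes of a library took 9.65%, 22.7%, 10.1% and 12.2% of the counts in IA 1 to IA 4, and 9.31%, 8.95%, 7.28% and 8.32% in C 1 to C 4. Every IA library lay above every control, by little in IA 1 and by much in IA 2. The means were 13.6% ± 6.11 in IA and 8.46% ± 0.889 in C (SD, n = 4; two-sided exact permutation p = 0.0286, the smallest that 4 against 4 allows). Adjusted over the 5 library measures tested, p was 0.0714, so the difference did not pass. In drained animals, which were outside this test, the same share was 21.3%, 14.99%, 10.6% and 17.1% in UD 1 to UD 4. All of these lay above the highest control. In UDR 1 to UDR 4 it was 11.7%, 11.1%, 9.45% and 7.41%, and only UDR 4 lay within the range of the controls. A share above the controls was thus not confined to infused animals.

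Larger sets of genes are no separate evidence, since each holds the genes of the smaller ones. The mean difference between IA and C was 4.75 percentage points for the 5 most abundant genes and 5.18 for 10. It was 5.33 for 100 and 3.76 for 1000. Most of the mean difference was thus already present in the top 5, which rests largely on IA 2. The 5 most abundant genes of IA 2 took 19.4% of its counts. In IA 1, IA 3 and IA 4 they took 6.43%, 6.81% and 8.33%, against a mean of 5.48% in C. Without IA 2 the difference was 2.18 percentage points for 10 genes and 2.83 for 100. The 100 most abundant genes took 28.1% to 38.8% of the counts in IA and 24.7% to 26.9% in C (exact permutation p = 0.0286, adjusted p = 0.0714). The groups did not overlap for the 5, 20, 50, 500 or 1000 most abundant genes either, sizes that were added afterwards. They did overlap for the single most abundant gene. Without IA 2, the 10 most abundant genes took 10.6% ± 1.35 in IA (SD, n = 3) and the 100 most abundant 28.8% ± 0.626, and the exact permutation p was 0.0286 for both, which is also the smallest that 3 against 4 allows. IA and C shared no lane, and no library was run in both lanes 1 and 3, so an effect of lane on these shares cannot be told apart from the infusion. Between lanes 2 and 3, UDR 2 had 11.1% of its counts in its 10 most abundant genes in lane 2 and 11.1% in lane 3, and UDR 3 had 9.44% and 9.47%. UD 1 and UD 2 were run in lane 1, as the controls were, and had 21.3% and 14.99%. An effect of lane 1 against lane 3 was not tested.

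**Figure D5:**
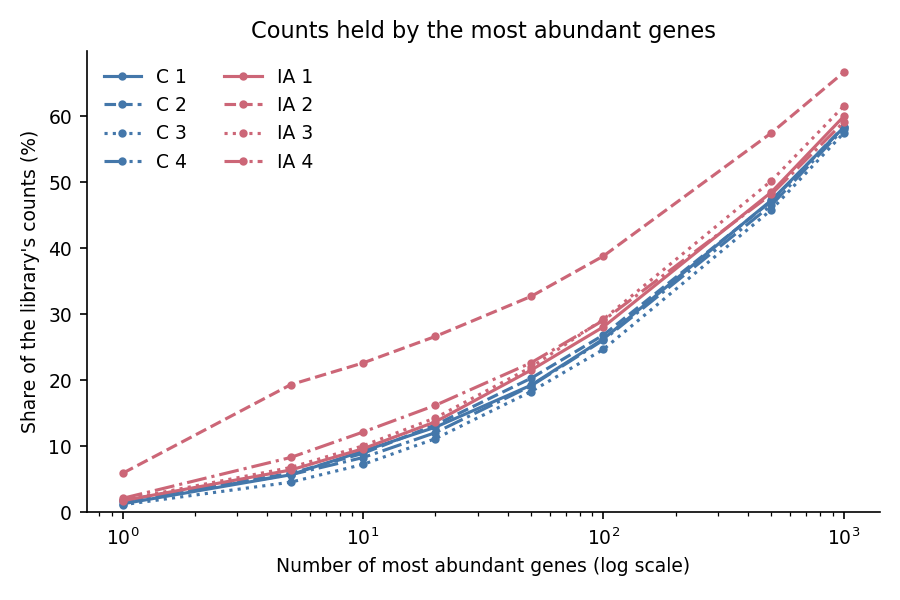
Share of a library's counts (percent) held by its most abundant genes, against the number of genes on a log scale, for the 4 C (blue) and 4 IA (red) libraries. From 5 genes on, every IA library lies above every control, with IA 2 at 22.7% for 10 genes and the controls at 7.28% to 9.31%.

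The abundant genes were mostly the same ones in IA 1, IA 3 and IA 4 as in the controls. Of the 100 most abundant genes of a library, 85, 83 and 87 were among the 100 most abundant of C, against 51 in IA 2. Among controls set against the other 3 it was 59 in C 1 and 76 to 90 in the rest. The gene that ranked first in C took 0.963% to 1.82% of the counts there and 1.79%, 1.90% and 1.48% in IA 1, IA 3 and IA 4, but 0.00649% in IA 2. The genes ranked 7 and 10 in C went the other way. They took 5.87% and 5.94% of the counts in IA 2 and 2.04% and 2.14% in IA 4, against at most 1.12% and 0.788% in the controls. In IA 1 and IA 3 both were within the range of the controls.

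The other library measures did not pass. IA libraries had counts for 16644 ± 378 genes and C libraries for 16615 ± 300 (SD, n = 4; exact permutation p = 0.886, adjusted p = 0.886). The TMM scaling factor was 0.983 ± 0.0695 in IA and 1.08 ± 0.0318 in C (exact permutation p = 0.0571, adjusted p = 0.0952). The median Spearman correlation with the other 7 libraries was 0.905 ± 0.102 in IA and 0.950 ± 0.0278 in C (exact permutation p = 0.514, adjusted p = 0.643), with IA 2 at 0.752.

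Genes that vary together in drained animals gave groups made without the libraries compared here. Of the 3000 genes with the largest spread within UD and UDR, 2896 fell into 4 clusters. Cluster 1, of 1182 genes, was the one in which infused animals were most uneven. Its mean log2 CPM relative to the mean of C was 2.12 in IA 2 and 0.69 in IA 4, but -0.37 in IA 1 and -0.03 in IA 3. The controls lay between -0.25 and 0.17. In the drained groups the same genes reached 2.51 in UD 1, 1.72 in UD 4 and 2.09 in UDR 3, so the level of IA 2 was also met in other groups. IA differed from C by 0.60, with an SD of 1.104 in IA and 0.18 in C over 4 libraries each (p = 0.4 by exact permutation, 0.8 after adjustment over 4 clusters), and by 0.10 without IA 2. Of its genes, 605 were over 2-fold higher and 38 over 2-fold lower in IA, and 158 and 83 without IA 2.

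The other clusters did not pass between IA and C. Cluster 2, of 986 genes, was at -0.04, -0.47, 0.07 and 0.59 in IA 1 to IA 4, a difference of 0.04 (exact permutation p = 0.943, adjusted p = 0.943). Cluster 3, of 616 genes, was high in C 1, at 1.45, while C 2 to C 4 lay between -0.89 and -0.21 and IA between -0.72 and 0.10. Its difference was -0.32 (exact permutation p = 0.743, adjusted p = 0.943) and turned to 0.16 without C 1. Cluster 4, of 112 genes, was at -1.57 in IA 2 and between -0.33 and -0.06 in the other IA libraries, a difference of -0.53 (exact permutation p = 0.343, adjusted p = 0.8). The SD of cluster 4 was 0.70 in IA and 0.41 in C. Without IA 2 its difference was -0.18. In each cluster edgeR called 0 genes.

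Large fitted differences lay among genes of low level and among genes that vary between animals. In the lowest quartile of level, below a mean log2 CPM of 2.46, 31.8% of genes were past 2-fold, against 10.3%, 4.42% and 2.65% in the next 3 quartiles. Without IA 2 these shares were 19.3%, 5.31%, 1.80% and 0.825%. Ordered by their spread within UD and UDR, which IA and C did not enter, 39.3% of genes in the most variable quartile were past 2-fold between IA and C. In the steadiest quartile it was 0.265%, or 5 genes higher and 4 lower. Of the 580 genes at an unadjusted p under 0.05, the most variable quartile held 333 of those higher and 27 of those lower in IA. In the steadiest quartile 43 were higher and 22 lower, which is 1.92% of its 3393 genes.

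For many genes the data limit the size of a change. The 95% interval of the log2 fold change reached a median of 0.85 to either side, or 1.81-fold. It lay wholly within 2-fold of no change for 5888 genes (43.4%) and within 4-fold for 76.8%. Without IA 2 the shares were 43.1% and 80.1%. In the steadiest quartile the interval reached a median of 0.50 to either side, and in the most variable 1.93. A change of 2-fold is thus larger than the median reach in the first and smaller in the second. These intervals are per gene and not adjusted for the number of genes, so they do not say that such a change would be called. By edgeR's test ENSOARG00000001244, at an unadjusted p of 0.000348, had an adjusted p of 0.9996.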

How the data were processed

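Polyadenylated amnion RNA was sequenced on an Illumina HiSeq, per the labels' protocols. The authors deposited read counts per Ensembl gene ID. The submitters' processing notes name FastQC 0.11.3, HTSeq 0.6.1 and DESeq2. Aligner, genome build, strand setting and annotation: not given in the sources used here. As a result, reads of overlapping, antisense or near-identical genes cannot be told apart. The table has 18 columns for 16 libraries, and all 18 matched a sample. The 2 runs of UDR 2 and of UDR 3 were summed: their chi-square per degree of freedom was 1.04 and 1.06, against at least 41.9 between different libraries.

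Genes with a CPM of 1 or more in at least 4 of the 16 libraries were kept. The test was that of edgeR 4.0.16 (R 4.3.3) on TMM-scaled counts (quasi-likelihood, robust, group as the only term, 16 libraries). P-values were adjusted by Benjamini-Hochberg over all genes, two-sided, with a threshold of 0.05. Log2 CPM used a prior count of 2. Library measures and cluster means were tested by two-sided exact permutation. Clusters came from UD and UDR deviations (3000 genes, average linkage on 1 minus the correlation, tree split at 8, at least 50 genes). The tests were checked on simulated counts.

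Alternatives were other scalings and filters, limma-voom (limma 3.58.1) with quality weights per library, DESeq2 1.42.0, a replicate block, a lane term, the 8 libraries alone and each library left out. The named genes are the 2 higher and 2 lower of smallest p. The 23 gene lists prepared for transport and cell types could not be used, because 0 of their 250 symbols matched an ID. Libraries, lists and rules were chosen with earlier results of these data known. Each animal gave 1 library, so the spread includes both animal and library preparation.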

Additional observations from a re-analysis of the deposited data

Results flagged for a closer look

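In 26 sets of 4 libraries (5 library measures, 4 clusters and 4 genes, in IA and in C), 4 held a value far from the other 3, where chance alone would give about 1.3. Several of the measures depend on one another. Of these 4 values, 3 belonged to IA 2. Its 100 most abundant genes took 38.8% of its counts, against 28.1% to 29.3% in the rest of IA. Its median Spearman correlation with the other 7 libraries was 0.752, against 0.948 to 0.964. ENSOARG00000015342 was at 9.61 CPM in IA 2, against 0.507 to 1.32 in the rest of IA. In the controls, ENSOARG00000001244 was at 48.5 CPM in C 1, against 15.1 to 18.8 in C 2 to C 4. The causes were not tested.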

How the results depend on the processing

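edgeR called 0 genes between IA and C under RLE and upper quartile scaling, under both other filters, with the 8 libraries alone, with a replicate block, with a lane term and with each library left out (0 to 0 over the 8 fits, smallest adjusted p 0.722). DESeq2 called 5. The genes at an unadjusted p under 0.05, 580 in the main test, numbered 969 with no filter beyond 1 count, where 20646 genes were tested, 940 by DESeq2, 1111 by limma-voom with quality weights per library (607 higher and 504 lower) and 373 with a lane term. With a replicate block the number was 293, 210 higher and 83 lower. Same-numbered IA and C libraries correlated in their deviations from the group means at -0.27, 0.12, 0.40 and 0.05, and only the third pair correlated best with its own number in both groups, so the block is not a pairing of animals. The lane term rests on differences between UD animals and between UDR animals. With 1 library left out the number ranged from 136 to 912, and it was 121 without IA 2 and C 1.

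Genes past 2-fold numbered 5049 with no filter, 606 by weighted limma-voom (311 higher and 295 lower) and 3701 with a lane term. They numbered 923 to 2012 with 1 library left out and 950 without IA 2 and C 1. Limma-voom gave IA 2 the lowest weight of the 16 libraries, 0.201. Genes whose groups did not overlap numbered 246 to 349 under other scalings and filters. They numbered 407 to 895 with 1 library left out and 1513 without IA 2 and C 1, where fewer libraries make separation more frequent. DESeq2 called ENSOARG00000001244 (adjusted p = 0.00981).

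Counted over the genes tested, the difference in genes with counts was -24.3, against 28.8 over all IDs, and it ranged from -82.7 to 153 with 1 library left out. The difference in the TMM factor was -0.126 with factors from all genes with a count (adjusted p = 0.0476 by exact permutation, so it passed), and -0.126 to -0.0725 with 1 library left out. For the 10 most abundant genes the difference was 2.18 to 6.51 percentage points with 1 library left out and for the 100 most abundant 2.83 to 6.41. Both passed without IA 4 (5.67 and 6.08, adjusted p = 0.0476 by exact permutation). With any other of the 8 libraries left out neither passed. The adjusted p by exact permutation was then 0.0714 without IA 1, IA 2 or IA 3, and up to 0.286 without a control. The difference in the median correlation was -0.0618 to 0.00663. Cluster differences with 1 library left out were 0.10 to 0.93 in cluster 1, -0.15 to 0.21 in cluster 2, -0.62 to 0.16 in cluster 3 and -0.68 to -0.18 in cluster 4. With the median over genes in place of the mean, cluster 4 differed by -0.57. Its adjusted p by exact permutation was then 0.114, against 0.8 with the mean, so it did not pass either way. The causes of these changes were not tested beyond what the settings themselves show.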
